A study of Homo sapiens with 12 samples.

Results

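The 60 genes described here make up a list of endoplasmic reticulum (ER) folding and secretory pathway machinery. They comprise ER chaperones, disulfide-forming enzymes, the protein entry machinery, sensors of ER stress, degradation factors and components of the vesicles that leave the ER. They were chosen by name, and each was matched by its symbol to 1 row of a count table of 60671 genes. All 60 were abundant enough to be tested, among 18219 genes tested in all. The cells were LS180, an established human colorectal cancer line that makes intestinal mucus proteins. Each of 3 derivatives of the line carried a doxycycline-inducible construct, for GFP as the control, for V5-tagged wild-type SOX9, or for the V5-tagged mutant SOX9 called M303, which is a truncated form of the protein. SOX9, a transcription factor, is found in stem and Paneth cells of the gut. Each line was profiled by RNA-seq without doxycycline and after 24 h in doxycycline at 0.5 µg/ml, with 2 libraries in each of the 6 groups. Construct and line go together, so the effect of a construct and that of the line carrying it cannot be told apart, and nothing states whether a line is 1 clone or whether duplicates came from separate cultures. P-values therefore measure only the spread between these libraries, which may be technical.

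Proteins bound for secretion enter the ER through the SEC61 channel, lose their signal peptide, receive sugars and disulfide bonds, and fold with the help of chaperones such as BiP (HSPA5). Folded cargo leaves in COPII-coated vesicles, ER residents that escape are retrieved by KDEL receptors, and proteins that fail to fold are sent back to the cytosol and degraded. When unfolded protein accumulates, the sensors IRE1, PERK and ATF6 start the unfolded protein response, which raises the transcription of much of this machinery. Goblet cells of the intestine secrete large disulfide-linked mucins, and they have a second IRE1 protein, IRE1β, encoded by ERN2.

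The libraries held 31012775 to 48529770 counts. Levels are given as CPM (counts scaled by library size), and a gene was called changed at a Benjamini-Hochberg adjusted p under 0.05 in edgeR's quasi-likelihood test. The SOX9 gene, which checks the labels, had 357 and 381 CPM in the uninduced SOX9 line and 712 and 761 CPM after induction. It had 399 and 367 CPM in the uninduced M303 line and 818 and 867 CPM after induction, and 371 to 405 CPM in all libraries of the GFP line. These counts thus check induction and set the GFP line apart. They rose in both other lines and cannot tell which of them carries wild-type SOX9 and which M303. All 8 epithelial marker genes were present (10086 to 12004 CPM summed over them), whereas none of 6 fibroblast and none of 8 blood and endothelial markers reached a mean of 1 CPM. The ranges of their summed levels were 0.827 to 2.17 CPM and 0.401 to 1.35 CPM. Under SOX9 induction 2 of the 8 epithelial markers fell and none rose. The intestinal transcription factor CDX2 had 159 and 194 CPM before and 124.5 and 132 CPM after (log2 fold change -0.46, edgeR adjusted p = 0.00418), and the brush border protein VIL1 had 413 and 460.0 CPM before and 356 and 364 CPM after (log2 fold change -0.28, adjusted p = 0.0446). The CDX2 call was lost in 2 alternatives and the VIL1 call in 10, with adjusted p up to 0.111 and 0.409. The part of these markers in the results below was not tested.

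Several of these genes carry well-known response elements of the unfolded protein response in their promoters, and a few are shown because genes of different function share them. Promoter windows from RefSeq (GRCh38.p14) ran from 250 bases before to 50 bases after the annotated start and were available for 54 of the 60 genes, all except ERN2, KDELR2, PDIA3, SEC24D, SELENOM and SPCS1. The ER stress response element ERSE (a CCAAT box and a CCACG box with a fixed spacer between them, searched on both strands) was found in 7 of 54 (13%) against 22 of 27305 promoters of all genes (0.0806%). It was in CALR, CANX, CRELD2, ERO1B, HSP90B1, HSPA5 and XBP1, and HSP90B1 held 2 copies. The related ERSE-II, in which the same kinds of box nearly touch, was found in HERPUD1, HYOU1 and SDF2L1, which is 5.56% of the 54 against 0.0549% of all promoters. The element named UPRE (TGACGTGG) was found in DNAJC10, HYOU1, KDELR3, SEC23A, SEC24A, SEC62 and TXNDC11 (13% against 0.795%). In HYOU1 the UPRE overlaps 1 of its 2 ERSE-II copies. A short SOX motif (ACAATGG or ACAAAGG) was in the window of 1 gene, SSR2 (1.85% against 8.19%). Each sequence below runs 5′ to 3′ along the gene's own strand, and capitals mark the paired boxes of an ERSE, a whole ERSE-II or a whole UPRE, as they read on that strand.
HSPA5, ERSE, chr9:125241379-125241421, minus strand: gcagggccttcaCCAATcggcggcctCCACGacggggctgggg
XBP1, ERSE, chr22:28800591-28800633, minus strand: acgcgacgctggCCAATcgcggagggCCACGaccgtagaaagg
CALR, ERSE in reverse orientation, chr19:12938372-12938414, plus strand: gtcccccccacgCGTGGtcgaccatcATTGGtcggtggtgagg
SDF2L1, ERSE-II in reverse orientation, chr22:21642102-21642136, plus strand: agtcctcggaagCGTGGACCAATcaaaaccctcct
HERPUD1, ERSE-II, chr16:56932013-56932047, plus strand: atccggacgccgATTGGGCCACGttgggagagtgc
KDELR3, UPRE in reverse orientation, chr22:38468038-38468069, plus strand: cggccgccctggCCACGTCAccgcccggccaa
A match is a run of letters and not a measured binding site.

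Levels in the 6 uninduced libraries were compared per length, as CPM per kilobase of the gene's summed exons. The exon length covers every annotated transcript, so the scale understates genes with long minor transcripts. The most abundant of the 60 was the lectin chaperone calreticulin, CALR, at 444 ± 11.4 (SD, n = 6). HSPA5 (205 ± 8.92), the HSP90 of the ER, HSP90B1 (201 ± 8.48), and calnexin, CANX (193 ± 10.7), came next, with overlapping ranges of mean ± SD. The disulfide isomerases P4HB (173 ± 13.9), PDIA4 (162 ± 3.40) and PDIA3 (141 ± 5.30) and the channel subunit SEC61A1 (123 ± 10.1) followed. At the other end were the oxidase ERO1B (0.801 ± 0.0992), the selenoprotein SELENOM (0.850 ± 0.130) and the stress sensor ERN1 (1.82 ± 0.107). ERN2, the goblet cell relative of ERN1, stood at 11.1 ± 0.698 on this scale. By role, the median was 29.4 for the 12 chaperones and their helpers, 27.01 for the 13 entry genes, 15.6 for the 12 vesicle and retrieval genes, 13.1 for the 11 disulfide genes, 11.8 for the 6 degradation factors and 10.5 for the 6 stress signalling genes. The plot of uninduced and SOX9-induced levels sets these values side by side.

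**Figure D1:**
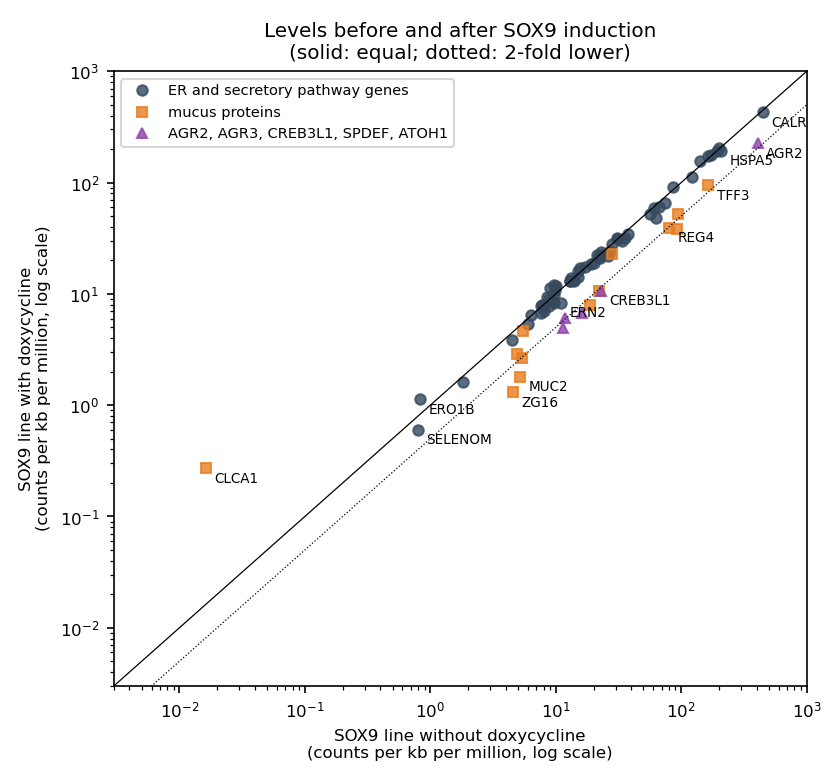
Level of each of the 60 genes, the mucus genes and the goblet cell secretion genes in CPM per kilobase (log axes) in the SOX9 line, without doxycycline on the x axis and with doxycycline on the y axis, each point the mean of 2 libraries. The 60 genes keep close to the solid line of equal level from SELENOM to CALR, and most mucus genes lie near the dotted line of 2-fold lower level. MUC5B and MUC6 lie nearer the solid line, and ZG16 and MUC2 lie below the dotted one. CLCA1, which is under 1 CPM in every library, lies above the solid line.

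Under induction of wild-type SOX9, 2 of the 60 genes fell and none rose. They were ERN2 and the chaperone cofactor SDF2L1, both lower by 0.40 on the log2 scale. The share called was 3.33%, and the share over all genes tested was 2.97% (1.81% higher, 1.16% lower), so the machinery was called about as often as any gene. At an unadjusted p under 0.05 there were 14 of the 60 (23.3%), 5 higher and 9 lower, against 13.8% of all genes. The median log2 fold change of the 60 was -0.03, with a range of -0.40 to 0.45 and 33 below 0 (55.0%). The median of all genes was 0.01, with 49.1% below 0. The 95% confidence interval lay within 0.5 log2 units of 0 for 54 of the 60 (90.0%), against 45.6% of all genes. The other 6 were SDF2L1, ERN2, PDIA5 and the low or poorly resolved genes ERO1B, SELENOM and TXNDC5. The median standard error was 0.09 for the 60 and 0.17 for all genes. The 2 induced libraries did not overlap the 2 uninduced ones in 35 of the 60 genes (12 higher, 23 lower), a count to be read against 44.7% of all genes (23.2% higher, 21.5% lower).

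**Figure D2:**
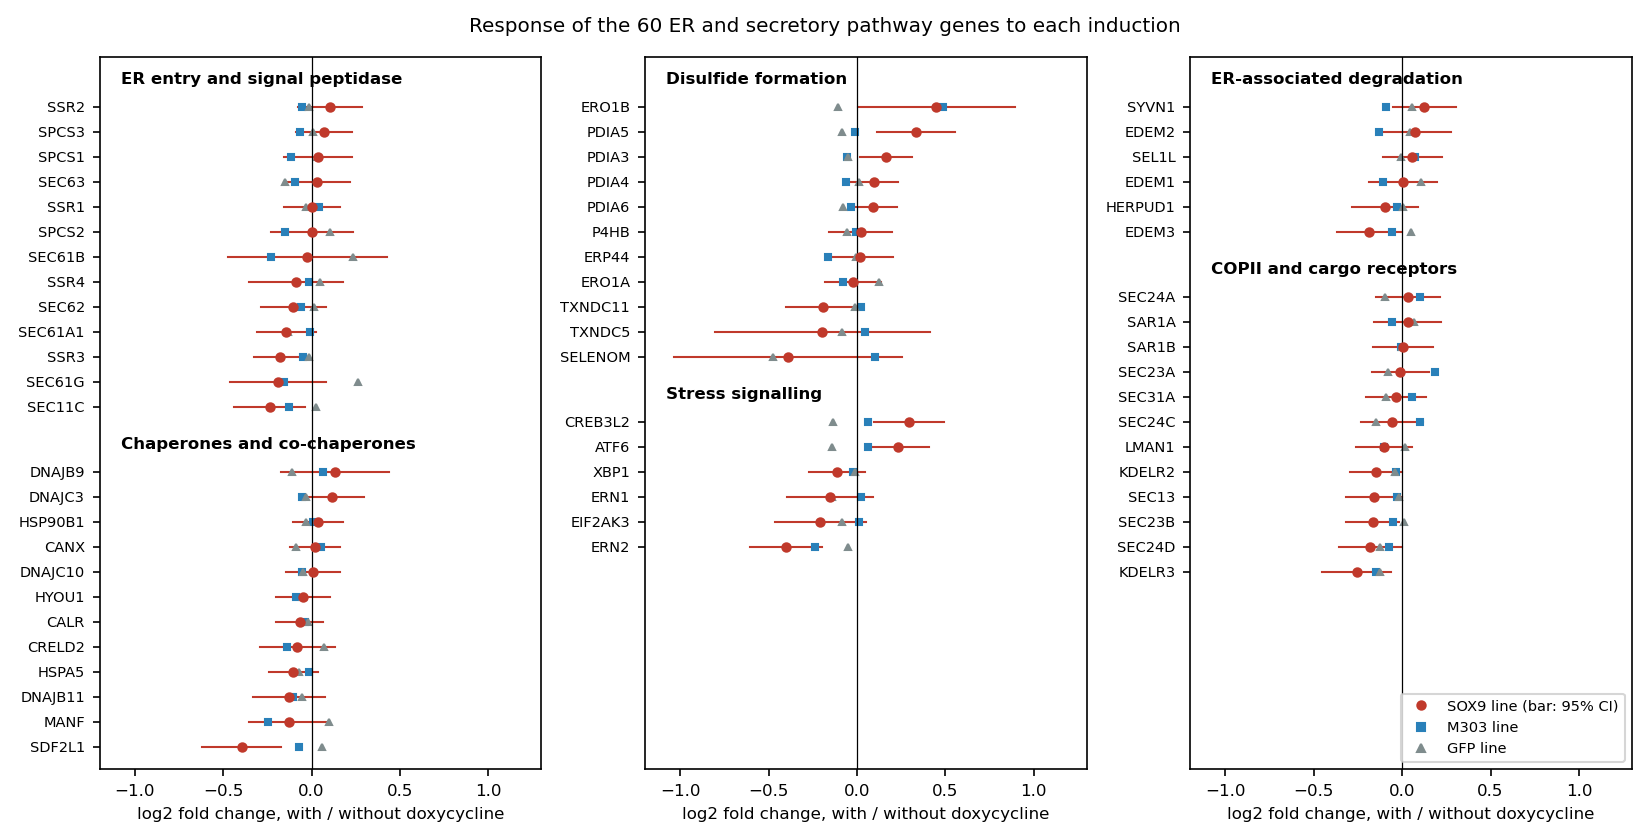
Log2 fold change of the 60 genes, grouped by role, for induction of wild-type SOX9 (circles, with bars for the 95% confidence interval), M303 (squares) and GFP (triangles). For SOX9 the values run from -0.40 to 0.45, and ERN2 and SDF2L1 are the called genes.

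Among the stress signalling genes, ERN2 (ENSG00000134398, GRCh38 chr16:23690310-23713226, minus strand) encodes IRE1β, the IRE1 of mucus-secreting epithelia. It had 52.9 and 51.2 CPM in the uninduced SOX9 line and 40.6 and 38.0 CPM after induction. In the M303 line it had 58.8 and 50.2 CPM without and 48.6 and 43.8 CPM with doxycycline, and in the GFP line 52.1 and 49.7 CPM without and 51.5 and 46.9 CPM with it. The 2 SOX9-induced libraries were the lowest of the 12, and the groups did not overlap in the SOX9 or the M303 line. Under SOX9 the log2 fold change was -0.40, SE 0.10, 95% interval -0.61 to -0.20, edgeR adjusted p = 0.0258. Under M303 it was -0.23, which missed the threshold (unadjusted p = 0.0262, edgeR adjusted p = 1.00), and under GFP it was -0.05. The call rested on each library of the SOX9 line. Without uninduced library 1 or 2 the adjusted p was 0.0999 or 0.0803, without induced library 1 or 2 it was 0.0964 or 0.295, and over all alternatives it ranged from 0.00608 to 0.295. The fold change stayed between -0.46 and -0.36 in these 4 settings.

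The ubiquitous sensors and their effectors did not pass the test. ERN1, which encodes IRE1α, had 18.9 and 20.4 CPM in uninduced and 17.95 and 17.3 CPM in induced SOX9 cells (log2 fold change -0.15, SE 0.12, 95% interval -0.40 to 0.09, edgeR adjusted p = 0.639). XBP1 (GRCh38 chr22:28794555-28800597, minus strand), whose mRNA is spliced by IRE1 to make the main transcription factor of that arm, had 168 and 173 CPM before and 164 and 152 CPM after (log2 fold change -0.11, SE 0.08, 95% interval -0.27 to 0.05, edgeR adjusted p = 0.586). Gene counts hold spliced and unspliced XBP1 together. EIF2AK3, which encodes PERK, the kinase that slows translation, had 24.9 and 24.2 CPM before and 22.0 and 20.5 CPM after (log2 fold change -0.21, SE 0.12, 95% interval -0.46 to 0.05, edgeR adjusted p = 0.501). In each of these 3 genes both induced libraries were below both uninduced ones, as in 21.5% of all genes, and the 95% interval included 0. ATF6, the sensor that is itself a membrane-bound transcription factor, had 77.9 and 78.9 CPM before and 93.6 and 90.7 CPM after induction (log2 fold change 0.23, SE 0.08, 95% interval 0.06 to 0.41, edgeR adjusted p = 0.165). CREB3L2, a related membrane-bound factor that acts on secretory genes, had 80.8 and 90.5 CPM before and 102 and 108 CPM after (log2 fold change 0.29, SE 0.09, 95% interval 0.09 to 0.49, edgeR adjusted p = 0.117). For both, the induced SOX9 libraries were above the uninduced ones, as in 23.2% of all genes, and the adjusted p missed the threshold. In the M303 line ATF6 had 83.5 and 82.8 CPM without and 80.6 and 93.4 CPM with doxycycline, so 1 of those libraries reached the level of the SOX9-induced ones. Per kilobase, ATF6 stood at 11.2 ± 0.52 CPM in the uninduced GFP line and 11.7 ± 0.26 in the induced SOX9 line (mean ± SD), ranges that overlap. In the GFP line CREB3L2 had 91.1 and 106 CPM without doxycycline, a range that also reaches the SOX9-induced levels.

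Among the 12 chaperones and cofactors, 1 fell, none rose, and the median log2 fold change under SOX9 was -0.06. SDF2L1 (ENSG00000128228, GRCh38 chr22:21642302-21644299, plus strand), a cofactor of the BiP cycle whose promoter holds the ERSE-II shown above, had 68.2 and 66.1 CPM in uninduced and 53.5 and 48.4 CPM in induced SOX9 cells. It had 63.3 and 64.1 CPM without and 61.6 and 59.6 CPM with doxycycline in the M303 line, and 68.6 and 51.0 CPM without and 60.8 and 63.7 CPM with it in the GFP line. The 2 uninduced GFP libraries differed by more CPM than the means of the 2 SOX9 groups did, and 1 of them, at 51.0 CPM, lay between the 2 SOX9-induced libraries. The log2 fold change was -0.40, SE 0.11, 95% interval -0.62 to -0.17, edgeR adjusted p = 0.0480 under SOX9, -0.07 under M303 and 0.06 under GFP. The call was close to the threshold and was lost in 7 of the alternatives, over which the adjusted p ranged from 0.00325 to 0.425. Without SOX9 uninduced library 1 or 2 it was 0.136 or 0.119, without SOX9 induced library 1 or 2 it was 0.0964 or 0.425, without M303 uninduced library 1 it was 0.0553, with the replicate number as a block it was 0.0533, and without robust dispersion it was 0.0683.

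BiP itself, HSPA5 (ENSG00000044574, GRCh38 chr9:125234853-125241343, minus strand), is the standard readout of the unfolded protein response. It had 786 and 864 CPM without and 763 and 809 CPM with doxycycline in the GFP line, and 769 and 783 CPM without and 772 and 762 CPM with it in the M303 line. In the SOX9 line it had 826 and 799 CPM before and 752 and 762 CPM after induction (log2 fold change -0.10, SE 0.07, 95% interval -0.24 to 0.04, edgeR adjusted p = 0.567). Both induced SOX9 libraries were below both uninduced ones, 1 of them was the lowest of the 12, and the difference was smaller than that between the 2 uninduced GFP libraries. HSP90B1 had 969.8 and 908 CPM before and 975 and 951 CPM after (log2 fold change 0.04, SE 0.07, 95% interval -0.11 to 0.18, edgeR adjusted p = 0.893), and the groups overlapped. DNAJB9, a J-domain partner of BiP that restrains IRE1, had the highest log2 fold change of the chaperones, with 21.3 and 22.3 CPM before and 22.4 and 25.5 CPM after (log2 fold change 0.13, SE 0.15, 95% interval -0.17 to 0.44, edgeR adjusted p = 0.789). The remaining chaperone genes (CALR, CANX, HYOU1, DNAJB11, DNAJC3, DNAJC10, MANF and CRELD2) had log2 fold changes of -0.13 to 0.12, and none had an unadjusted p under 0.05.

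**Figure D3:**
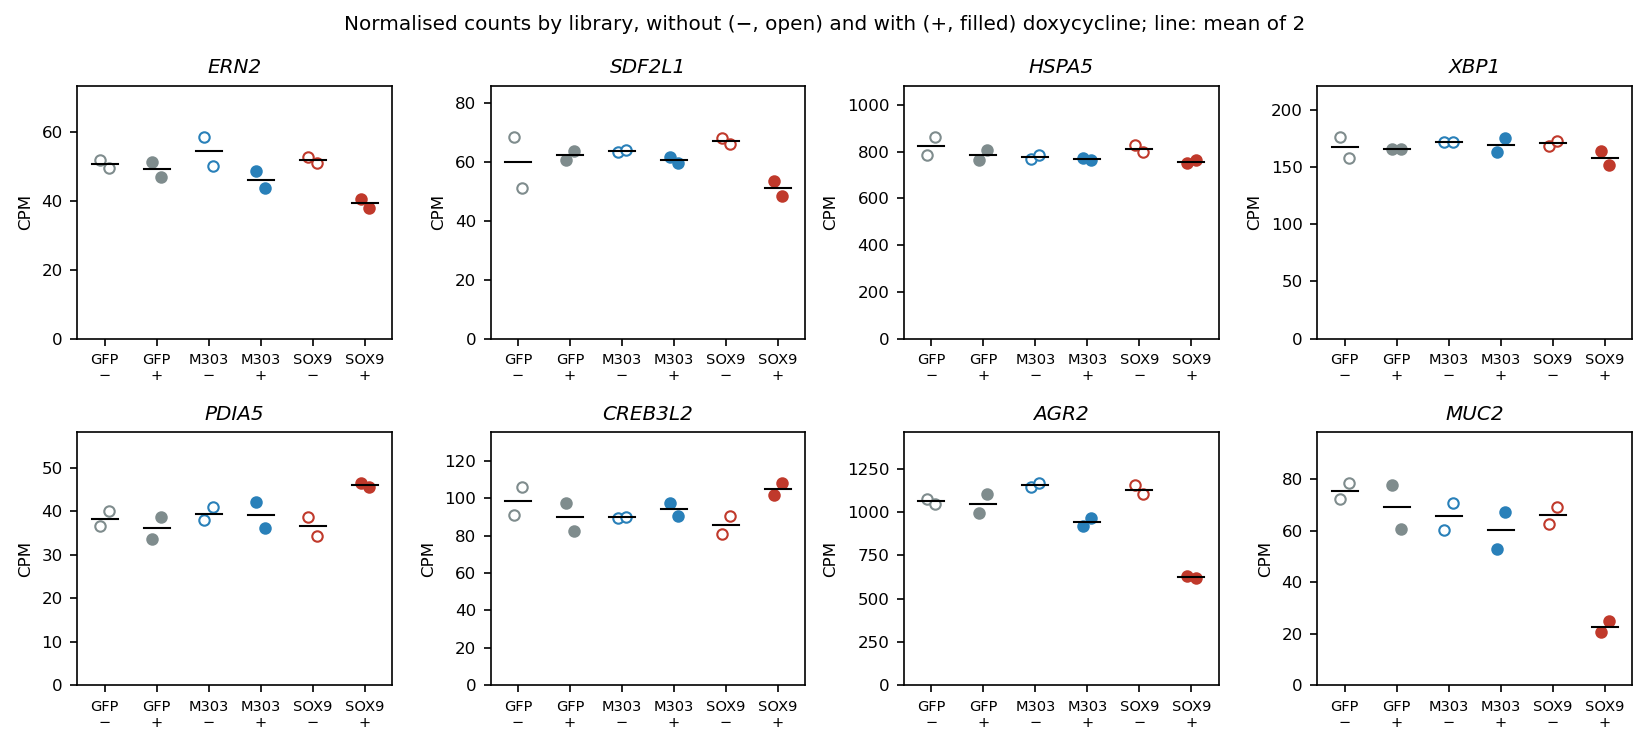
CPM in each of the 12 libraries for ERN2, SDF2L1, HSPA5, XBP1, PDIA5 and CREB3L2, and for AGR2 and MUC2 beside them, with the groups along the x axis, a point per library and a line at the group mean. AGR2 and MUC2 drop apart in the SOX9-induced group (633 and 618 CPM, and 20.7 and 24.8 CPM), whereas HSPA5 stays between 752 and 864 CPM.

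None of the 11 disulfide genes was called, and their median log2 fold change under SOX9 was 0.02. The isomerase PDIA4 had 541 and 530.0 CPM before and 572 and 572 CPM after induction (log2 fold change 0.09, SE 0.07, 95% interval -0.04 to 0.23, edgeR adjusted p = 0.597). ERO1B, which passes electrons from the isomerases to oxygen, had 5.09 and 4.56 CPM before and 6.78 and 6.38 CPM after (log2 fold change 0.45, SE 0.21, 95% interval 0.004 to 0.89, edgeR adjusted p = 0.354). ERO1B was also higher with doxycycline in the M303 line, at 3.67 and 5.12 CPM without and 6.00 and 6.32 CPM with it, a log2 fold change of 0.48 that was not called either. SELENOM, a small ER redox protein, had the lowest log2 fold change of the group, at 2.41 and 2.65 CPM before and 2.11 and 1.73 CPM after, and its interval was wide (log2 fold change -0.39, SE 0.31, 95% interval -1.03 to 0.25, edgeR adjusted p = 0.660). TXNDC5 had 27.7 and 39.4 CPM before and 28.3 and 30.2 CPM after (log2 fold change -0.20, SE 0.27, 95% interval -0.80 to 0.41, edgeR adjusted p = 0.842), and its counts are uncertain because 61.1% of its exon bases are shared with other genes, the readthrough gene BLOC1S5-TXNDC5 among them. PDIA5 and PDIA3 were picked out after their values were seen. PDIA5 had 38.7 and 34.3 CPM before and 46.5 and 45.6 CPM after (log2 fold change 0.33, SE 0.11, 95% interval 0.11 to 0.56, edgeR adjusted p = 0.111), and its 2 SOX9-induced libraries were the highest of the 12. PDIA3, which works with calnexin and calreticulin on glycoproteins, had 620.2 and 564 CPM before and 671 and 658 CPM after (log2 fold change 0.17, SE 0.07, 95% interval 0.02 to 0.31, edgeR adjusted p = 0.285), also the highest of the 12. The groups did not overlap in the SOX9 line for PDIA3, PDIA4, PDIA5, PDIA6 and ERO1B, each with the higher values after induction, and for SELENOM and TXNDC11 (32.9 and 36.2 CPM before, 30.7 and 29.7 CPM after), with the lower values after induction. These 7 of 11 compare with 44.7% of all genes, and for none of them was the adjusted p under the threshold.

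None of the 13 entry genes was called, with a range of -0.24 to 0.11 and intervals within 0.5 log2 units of 0 for all 13. SEC61A1 (GRCh38 chr3:128051641-128071683, plus strand), the pore of the translocation channel, had 526 and 612 CPM before and 519 and 513 CPM after SOX9 induction (log2 fold change -0.14, SE 0.08, 95% interval -0.31 to 0.02, edgeR adjusted p = 0.457). The uninduced libraries of the GFP line had 615 and 615 CPM, and the M303 line had 539.8 and 523 CPM without and 515 and 543 CPM with doxycycline, so the induced SOX9 values lay near the lowest of the M303 line. SEC11C, a catalytic subunit of signal peptidase, had the lowest log2 fold change of the entry genes, at 40.8 and 39.0 CPM before and 34.5 and 33.1 CPM after (log2 fold change -0.24, SE 0.10, 95% interval -0.44 to -0.04, edgeR adjusted p = 0.248). SSR2, a subunit of the translocon-associated TRAP complex, had the highest, at 98.4 and 100.7 CPM before and 112 and 103 CPM after (log2 fold change 0.11, SE 0.09, 95% interval -0.08 to 0.29, edgeR adjusted p = 0.678). The other signal peptidase subunits SPCS1, SPCS2 and SPCS3 had log2 fold changes of 0.04, 0.00 and 0.07. SPCS1 shares 56.6% of its exon bases with other genes.

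The 6 genes of ER-associated degradation were not called, with a median of 0.03. HERPUD1, a stress-inducible part of the retrotranslocation complex whose promoter holds the ERSE-II shown above, had 108 and 95.6 CPM before and 94.9 and 95.6 CPM after (log2 fold change -0.10, SE 0.09, 95% interval -0.28 to 0.09, edgeR adjusted p = 0.726). SYVN1, the ubiquitin ligase HRD1, had 53.4 and 55.7 CPM before and 58.9 and 60.2 CPM after (log2 fold change 0.12, SE 0.08, 95% interval -0.05 to 0.30, edgeR adjusted p = 0.589). EDEM3, which trims mannose from misfolded glycoproteins, had 69.9 and 68.2 CPM before and 58.5 and 63.0 CPM after (log2 fold change -0.19, SE 0.09, 95% interval -0.37 to -0.004, edgeR adjusted p = 0.348). The groups were apart for SYVN1 and EDEM2, with the higher values after induction, and for EDEM3, with the lower values after induction. Groups were apart in 44.7% of all genes. SEL1L, EDEM1 and EDEM2 lay between 0.01 and 0.07.

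The 12 genes of COPII vesicles, cargo receptors and retrieval had a median of -0.08, and 9 of them were below 0 (75%, against 49.1% of all genes). Under M303 and GFP 8 and 9 of the 12 were below 0. None was called under SOX9. An unadjusted p under 0.05 was found for 4 (33.3%, against 13.8% of all genes), all lower (KDELR3, SEC23B, SEC13 and SEC24D). KDELR3 (GRCh38 chr22:38468078-38483447, plus strand), a receptor that returns KDEL proteins to the ER, had 51.1 and 49.3 CPM before and 40.00 and 44.0 CPM after (log2 fold change -0.26, SE 0.09, 95% interval -0.45 to -0.06, edgeR adjusted p = 0.181). KDELR3 had 53.2 and 50.8 CPM without and 46.8 and 47.2 CPM with doxycycline in the M303 line, and 54.9 and 47.2 CPM without and 47.5 and 46.0 CPM with it in the GFP line, log2 fold changes of -0.15 and -0.13. The means were thus lower with doxycycline in all 3 lines, with overlapping groups in the GFP line, and the 2 SOX9-induced libraries were the lowest of the 12. The highest log2 fold change of the group was that of the cargo-binding coat protein SEC24A, with 67.5 and 60.4 CPM before and 65.4 and 65.3 CPM after (log2 fold change 0.03, SE 0.09, 95% interval -0.15 to 0.21, edgeR adjusted p = 0.931). The coat subunits SEC23B, SEC13 and SEC24D, picked out for their unadjusted p, had log2 fold changes of -0.17, -0.16 and -0.18, with edgeR adjusted p of 0.294, 0.347 and 0.348.

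The mucus proteins, a main cargo of this machinery in goblet cells, are set beside it here. Of 13 tested genes of mucus and goblet cell secretion, 8 fell under SOX9 and none rose (61.5%, against 2.97% of all genes called). The median log2 fold change of the 13 was -1.03. This list was drawn up with earlier results of these libraries known and is not independent evidence of its direction. The 8 were ZG16 (-1.79), the gel-forming mucin MUC2 (-1.54), SPINK4 (-1.28), REG4 (-1.04), the trefoil peptides TFF2 (-1.04), TFF1 (-0.85) and TFF3 (-0.80), and RETNLB (-1.03), with edgeR adjusted p of 6.08e-08 to 0.0339. Not called were FCGBP (-1.24, adjusted p = 0.0914), MUC5AC (-0.78, 0.295), MUC6 (-0.30, 0.752) and MUC5B (-0.24, 0.799). CLCA1, at 0.107 and 0 CPM before and 0.974 and 0.817 CPM after induction, was also not called (adjusted p = 0.144). TFF2, TFF3 and RETNLB were each lost in some alternatives, with adjusted p up to 0.0905, 0.291 and 0.321. The count was 9 with DESeq2 and 10 without robust dispersion, all lower. It was 11 when only the 2 SOX9 groups were fitted, with FCGBP, MUC5AC and the 8 lower and CLCA1 higher (adjusted p = 0.0379). The count of 8 fell to 5 without SOX9 uninduced library 1 and without either SOX9 induced library, and lay between 6 and 8 without any of the others. Fewer secretory cells and less RNA per cell cannot be told apart in such bulk libraries, for the mucus genes or for the machinery.

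Summed over the 60 genes, the machinery had 11830 to 12601 CPM in the 12 libraries, a ratio of highest to lowest of 1.07. The summed mucus list had 691 to 1486 CPM, a ratio of 2.15. In the SOX9 line the machinery had 12157 and 12284 CPM before and 12166 and 11993 CPM after induction, while the mucus list had 1287 and 1402 CPM before and 691 and 842 CPM after. The machinery of the 2 induced libraries thus stood at 99.6% and 98.1% of the uninduced mean, and the mucus list at 51.4% and 62.6%. By role, the induced SOX9 libraries stood at 105.6% and 105.3% of the uninduced mean for the disulfide genes (2652 and 2755 CPM before, 2854 and 2846 after). They stood at 94.9% and 92.4% for the vesicle and retrieval genes (1334 and 1312 CPM before, 1256 and 1222 after) and at 97.2% and 93.6% for the entry genes. The entry genes stood at 97.7% and 96.5% under M303 and at 98.7% and 97.7% under GFP. For the vesicle and retrieval genes it was 100.3% and 98.3% under M303 and 97.8% and 97.0% under GFP. For the disulfide genes it was 96.7% and 98.0% under M303 and 98.0% and 97.1% under GFP. No test was made of these sums. A sum is carried by its most abundant genes, here CANX, CALR, HSP90B1, P4HB and HSPA5.

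**Figure D4:**
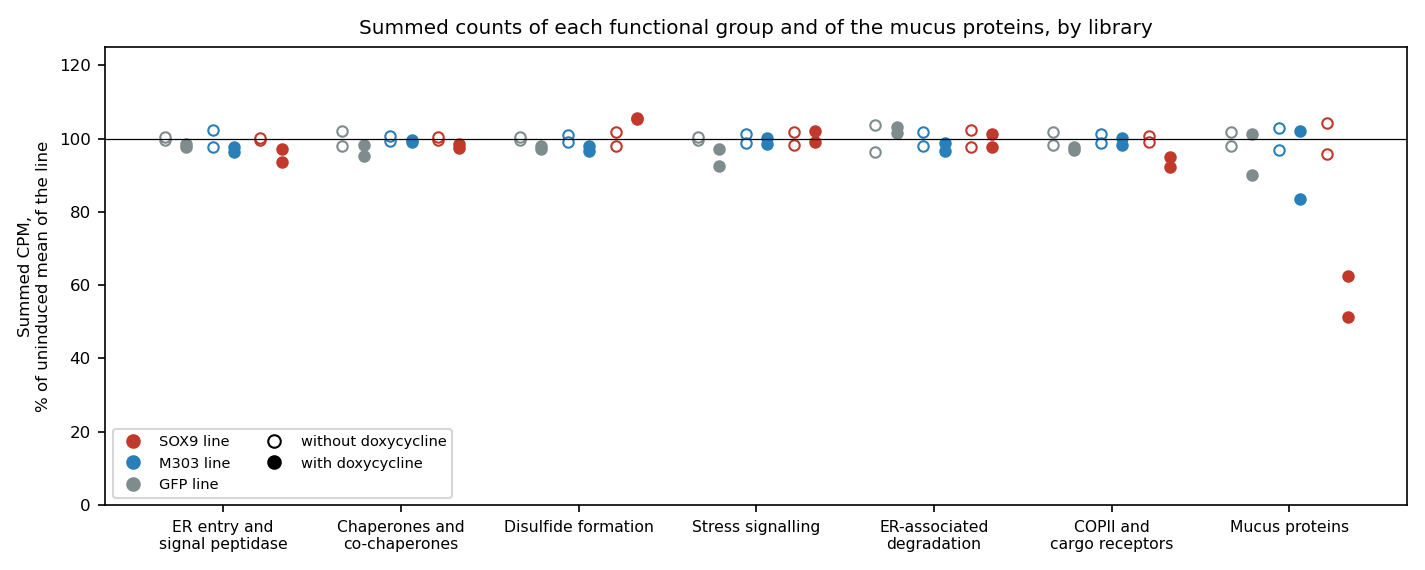
Summed CPM of each role group and of the mucus list in every library, as percent of the mean of the uninduced libraries of the same line, with a point per library. The mucus list stands at 51.4% and 62.6% in the SOX9-induced libraries, and the vesicle and retrieval genes at 94.9% and 92.4%.

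Further genes of goblet cell secretion and its regulation fell with the mucus proteins. AGR2, the disulfide isomerase of goblet cells that assists mucin folding and is not among the 60, had 1156 and 1104 CPM before and 633 and 618 CPM after induction. AGR2 fell by 0.85 on the log2 scale (SE 0.07), and its 2 SOX9-induced libraries were the lowest of the 12. Per length, AGR2 stood at 409 ± 13.5 before and 226 ± 3.79 after (SD, n = 2), beside 448 ± 16.8 and 427 ± 2.74 for CALR. AGR3 (-0.94), the ER stress related factor CREB3L1 (-1.10) and the goblet and secretory cell factors SPDEF (-1.21) and ATOH1 (-1.25) also fell. Thus 5 of 5 on that list were called, against 2.97% of all genes tested. The list was also drawn up with earlier results of these libraries known and is not independent evidence. Under M303 none of these 5 was called in edgeR or DESeq2, and all 5 had negative log2 fold changes (-0.57 to -0.24, median -0.30) with an unadjusted p under 0.05. None of the 13 mucus genes was called under M303 in edgeR or DESeq2, and 5 had an unadjusted p under 0.05, namely ZG16 (-0.59), TFF3 (-0.52), SPINK4 (-0.46), TFF1 (-0.43) and REG4 (-0.32), with a median of -0.32 over the 13. TFF3 passed under M303 without a filter on low counts and with only the M303 groups fitted, and SPINK4 without a filter. Under GFP none of either list was called or had an unadjusted p under 0.05. AGR3 was no longer called without SOX9 induced library 2 (edgeR adjusted p = 0.108). A wider list held 100 tested genes of translocation, glycosylation, folding, stress signalling, degradation and vesicle transport outside the 60. Of these, 1 was called under SOX9 (1%, against 2.97% of all genes tested). It was TRIB3, a target of the PERK arm, at 211 and 241 CPM before and 168 and 184 CPM after (log2 fold change -0.37, edgeR adjusted p = 0.00930). The TRIB3 call was lost without SOX9 uninduced library 2 (0.176) or SOX9 induced library 1 (0.207). The median of the 100 was 0.02.

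Induction of M303 called none of the 60 genes in edgeR and none in DESeq2, and 1 gene of all tested was called in edgeR (0.00549%). An unadjusted p under 0.05 was found for 4 of the 60, ERN2 (-0.23), MANF (-0.25), SEC23A (0.18) and ERO1B (0.48), against 3.63% of all genes. The median of the 60 was -0.05, 43 of them were below 0 (71.7%, against 49.8% of all genes), and the confidence interval lay within 0.5 log2 units of 0 for 56. The groups did not overlap in 22 (6 higher, 16 lower), against 33.8% of all genes (17.1% and 16.8%). MANF, a small secreted protein that is retained in the ER by its KDEL-like tail, had 77.9 and 86.3 CPM without and 70.7 and 67.6 CPM with doxycycline. The uninduced GFP libraries of MANF had 80.3 and 61.8 CPM, a span that holds 3 of those 4 values.

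Induction of GFP, the control for doxycycline, called none of the 60 (0% of all genes in edgeR), none in DESeq2, and none had an unadjusted p under 0.05 (3.18% of all genes). The median was -0.03, 39 were below 0 (65.0%, against 49.8% of all genes), and the interval lay within 0.5 log2 units of 0 for 55. The groups did not overlap in 12 (3 higher, 9 lower), against 27.4% of all genes (13.5% and 13.8%). The values farthest from 0 were those of SELENOM (-0.47), SEC61G (0.26) and SEC61B (0.24). SEC61G had 49.7 and 45.4 CPM without and 47.0 and 67.0 CPM with doxycycline, and SEC61B had 64.7 and 50.03 CPM without and 53.2 and 81.8 CPM with it. In both genes the GFP-induced duplicates lay far apart.

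The differences between inductions were tested directly. None of the 60 differed between SOX9 and M303 induction in edgeR (0.489% of all genes) or DESeq2, and 3 had an unadjusted p under 0.05 (6.99% of all genes). These 3 were SDF2L1 (-0.32), PDIA3 (0.22) and PDIA5 (0.34). None differed between SOX9 and GFP induction in edgeR (0.895%) or DESeq2, and 7 had an unadjusted p under 0.05 (9.01%). They were SDF2L1 (-0.46), SEC61G (-0.45), ERN2 (-0.35), PDIA3 (0.22), ATF6 (0.38), PDIA5 (0.42) and CREB3L2 (0.43). The fall of ERN2 under SOX9 was thus not shown to differ from its change under M303 (difference -0.17, edgeR adjusted p = 0.906) or GFP (difference -0.35, adjusted p = 0.414). Without 1 library a single gene of the 60 passed in the second of these tests, SDF2L1 without GFP uninduced library 1 and SEC61G without GFP induced library 1. None differed between M303 and GFP induction (0.00549% of all genes in edgeR, none in DESeq2), where SEC61G (-0.42), MANF (-0.34), SEC24C (0.25) and SEC23A (0.26) had an unadjusted p under 0.05 (3.94%). The 3 differences share libraries and are not independent of each other.

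Before induction, no gene of the machinery was called between the lines. Between the uninduced SOX9 and GFP lines the share called over all genes was 0% in edgeR, none of the 60 was called in DESeq2, and CREB3L2 (-0.20), SEC24C (-0.19) and SEC61G (0.40) had an unadjusted p under 0.05 (4.75%). Between the uninduced M303 and GFP lines the share over all genes was 0.00549%, none of the 60 was called in DESeq2, and SEC24C (-0.22), SEC61A1 (-0.21), EDEM1 (0.21) and SEC61G (0.31) had an unadjusted p under 0.05 (6.09%). SEC61G, the smallest channel subunit, had 49.7 and 45.4 CPM in the uninduced GFP line against 66.0 and 59.3 CPM in the uninduced SOX9 line and 53.3 and 64.7 CPM in the uninduced M303 line. SEC24C shares 42.8% of its exon bases with other genes.

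The genes with an ER stress element in their promoter were set apart as a description. The 10 with an ERSE or ERSE-II had a median log2 fold change of -0.07 under SOX9, with 7 below 0 and 1 called (SDF2L1). The 44 with neither had a median of 0.00, with 22 below 0 and none called. ERN2, the other called gene, had no promoter window and is in neither group, so the calls cannot be compared between the groups. Under M303 the medians were -0.03 and -0.05, and under GFP -0.03 and -0.01. In XBP1, HSPA5 and CALR, whose elements are printed above, the value under SOX9 was -0.11, -0.10 and -0.07, and none of the 3 was called. The ERSE genes CANX, HSP90B1 and ERO1B lay above 0 under SOX9, with ERO1B the highest at 0.45, and were not called either.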

How the data were processed

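RNA-seq libraries of mRNA captured on oligo(dT) beads were sequenced as read pairs, per the labels' protocols. The aligner was STAR 2.7.0a and the genome hg38, per the submitters' processing notes. The deposited unit is the raw count per gene, made by the authors with featureCounts 2.0.1 and the Ensembl release 101 annotation, per the file headers. The recorded command has no paired-end, strand or multi-mapping option. Each mate was therefore counted, reads of overlapping genes on opposite strands cannot be separated, and reads mapping to several places were not counted. The gene length in the same table is the authors' deposited exon length in bases. Of the 60 genes, 36 share an exon base with another gene, and 6 share over 20% (TXNDC5, SPCS1, SEC24C, PDIA6, DNAJB11 and SSR3, with 20.8% to 61.1%).

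Gene symbols were matched through a gene name table (42020 of 60671 genes). Counts were tested in R 4.3.3 with edgeR 4.0.16 (robust quasi-likelihood F-test, TMM factors of 0.981 to 1.02, filterByExpr, Benjamini-Hochberg adjustment over 18219 genes). All 12 libraries entered 1 model with 6 group means and 6 residual degrees of freedom, and the biological coefficient of variation was 10.6%. The 8 comparisons were 3 inductions, their 3 differences as interaction terms, and each SOX9-form line against the GFP line without doxycycline. CPM values use the TMM factors. Alternatives were DESeq2 size factors, the DESeq2 1.42.0 Wald test, no filter, a fit of the groups compared alone, a replicate block, non-robust dispersion, and leaving out each library. The fit was also tested on simulated data, but the simulated dispersion and the pass mark were both relaxed after first results were seen, so that test is no measure of power here.

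The genes and all lists were chosen with earlier results of these data known. Of the 104 further pathway genes listed, VIMP, an older name, had no match. Named in full were genes called in any comparison, 13 set names (such as HSPA5, XBP1 and SEC61A1), and the highest and lowest gene of each role under SOX9 induction. No pair of duplicates matched within counting noise (chi-square per degree of freedom 6.89 to 20.7). Protein sequences were not analysed here.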

Additional observations from a re-analysis of the deposited data

Results flagged for a closer look

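No gene of the 60 differed between inductions by the test of the difference. Among the genes set beside them, the responses below differed between inductions by edgeR's interaction test at an adjusted p under 0.05, and no explanation was tested. The log2 fold change under SOX9 was lower than that under M303 for MUC2 (-1.42), ATOH1 (-1.01), SPDEF (-0.91), CREB3L1 (-0.80), REG4 (-0.71) and AGR2 (-0.56). It was lower than that under GFP for ZG16 (-1.74), MUC2 (-1.42), SPINK4 (-1.37), ATOH1 (-1.25), SPDEF (-1.09), CREB3L1 (-0.94), REG4 (-0.93), TFF1 (-0.92) and AGR2 (-0.83). The SOX9 gene, whose counts include construct transcripts as far as the annotation covers them, differed from GFP induction by 1.03 under SOX9 and by 1.17 under M303. Some of these differences were not stable. SPDEF against M303 (adjusted p = 0.0411) was lost in 8 alternatives, with the replicate block (0.0714), without robust dispersion (0.0535), and without M303 uninduced library 2 (0.256), M303 induced library 1 or 2 (0.0679 or 0.166), SOX9 uninduced library 2 (0.186) or SOX9 induced library 1 or 2 (0.282 or 0.0740). AGR2 against M303 (0.00411) was lost without SOX9 induced library 2 (0.0512). TFF1 against GFP (0.0229) was lost in 5, with the groups compared alone (0.0664) and without GFP uninduced library 2 (0.165), GFP induced library 2 (0.0918), SOX9 uninduced library 1 (0.0961) or SOX9 induced library 2 (0.123). The others passed in every alternative run. Both sets of differences share the SOX9-line libraries.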

How the results depend on the processing

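No called result changed direction under any alternative, but some uncalled fold changes near 0 changed sign. Of the 60 genes, 33 were below 0 under SOX9 in the main fit. The number was 32 without SOX9 uninduced library 1 and 40 without SOX9 induced library 1. Under SOX9 induction the count of 2 of the 60 genes became 1 with a replicate block and 1 without robust dispersion (SDF2L1 was lost in both), and leaving out 1 library gave 0 to 2. It was 0 without any 1 of the 4 libraries of the SOX9 line and 1 without M303 uninduced library 1. For the difference of SOX9 and GFP induction the count of 0 became 0 to 1. The count of 541 genes of all tested under SOX9 induction became 231 to 675 with 1 library left out (301 without SOX9 uninduced library 2, 270 and 231 without induced library 1 and 2), 757 with DESeq2, 750 without a filter and 452 with the replicate block. For M303 induction 1 gene became 2 with DESeq2, 9 without a filter, 3 with the groups compared alone and 1 to 2 with a library left out. For GFP induction 0 became 2 with DESeq2, 4 without a filter and 0 to 9 with a library left out. The 89 genes of SOX9 against M303 induction became 147 without a filter and 57 to 107 with a library left out, and the 163 of SOX9 against GFP induction became 270 and 95 to 229. For M303 against GFP induction 1 became 11 and 1 to 12. For the uninduced SOX9 and GFP lines 0 became 2 with DESeq2, 17 without a filter, 1 with the groups compared alone and 0 to 39 with a library left out. For the uninduced M303 and GFP lines 1 became 22 without a filter and 0 to 56 with a library left out. The 8 mucus genes became 5 to 8 with a library left out, 9 with DESeq2, 10 without robust dispersion and 11 (1 of them higher) with the groups compared alone. The difference between duplicates correlated at -0.0786 to 0.0515 between groups, so no effect shared by same-numbered libraries was seen. That does not establish how the libraries were paired, which the labels do not say. The block changed no other count of the 60. The median of the 60 under SOX9 was -0.07 to -0.02 over all settings. Precision under SOX9 was lowest for SELENOM, TXNDC5 and ERO1B, with standard errors of 0.31, 0.27 and 0.21 against a median of 0.09 over the 60.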
